A study of Mus musculus with 6 samples.

Results

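The genes described here are 10 HOX genes, picked by name: Hoxa5, Hoxa9, Hoxb4, Hoxb5, Hoxb9, Hoxc4, Hoxc6, Hoxc8, Hoxd8 and Hoxd9. The set was chosen by the log2 values on the arrays described here, since Hoxc4 and Hoxd9 differ among the NPC arrays, so their values are given as a description with no test. Of these genes, 9 have a row among the 17144 genes of the arrays, and Hoxa5, which patterns the lung and the brainstem, was not analysed here because no row for its identifier (ENSMUSG00000038253_at) was at hand. Affymetrix mouse arrays were used to measure RNA in wild type embryonic stem cells (ESCs) of the line V6.5, a blastocyst derived line of 129SvJae/C57B6 F1 background grown with serum and LIF, and in neural precursor cells (NPCs) derived from those ESCs in vitro. The NPCs were kept dividing on polyornithine and laminin in N3 medium with bFGF and EGF. Each cell type has 3 biological replicates with 1 array each, all wild type and untreated, and the labels do not say whether the NPC replicates came from separate differentiations. Their titles are NP106, NP107 and NP39 for NPC replicates 1, 2 and 3, and what the numbers stand for is not stated. A p-value over these arrays therefore measures the spread between the replicates as deposited, which may be technical in part.

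HOX genes encode homeodomain transcription factors that give cells their position along the body axis. In mouse the RefSeq table lists 39 protein coding HOX genes in 4 clusters, HoxA to HoxD, and 13 paralogue groups, numbered by their order in the cluster. In the embryonic nervous system the forebrain and midbrain lack HOX expression, genes of low group number begin in the hindbrain, and those of higher number begin at more posterior levels of the spinal cord. In ESCs the clusters are held largely silent by Polycomb proteins. HOX genes expressed in a neural culture are thus commonly read as a record of regional character, and a culture with several replicates can be asked whether each carries the same set.

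The promoter windows of Hoxc4, Hoxd8 and Hoxd9 are shown because these 3 genes carry the changes described here. Each window is the 250 bases before a RefSeq transcript start (GRCm38.p6), written 5′ to 3′ on the strand of the gene, and the capitals mark TAAT on either strand, the core of homeodomain binding sites.
Hoxc4, chr15:103034145-103034394, + strand: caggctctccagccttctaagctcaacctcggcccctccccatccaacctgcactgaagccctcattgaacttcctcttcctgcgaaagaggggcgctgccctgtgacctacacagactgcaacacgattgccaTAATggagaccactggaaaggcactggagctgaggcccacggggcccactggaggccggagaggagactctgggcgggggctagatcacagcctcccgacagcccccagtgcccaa
Hoxd8, chr2:74704365-74704614, + strand: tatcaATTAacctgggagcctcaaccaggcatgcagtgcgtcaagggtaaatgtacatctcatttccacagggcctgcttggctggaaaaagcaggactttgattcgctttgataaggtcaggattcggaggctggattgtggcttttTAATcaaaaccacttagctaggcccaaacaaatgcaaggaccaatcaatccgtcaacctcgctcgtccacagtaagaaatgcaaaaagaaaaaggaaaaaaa
Hoxd9, chr2:74697513-74697762, + strand: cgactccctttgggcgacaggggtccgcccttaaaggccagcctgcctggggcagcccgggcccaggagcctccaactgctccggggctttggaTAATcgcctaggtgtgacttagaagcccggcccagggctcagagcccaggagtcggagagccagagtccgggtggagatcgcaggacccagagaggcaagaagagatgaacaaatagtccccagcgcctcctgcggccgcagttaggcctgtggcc
TAAT was found at 1 place in the windows of Hoxc4 and Hoxd9 and at 2 places in that of Hoxd8, and 54.9% of 32851 promoter windows of this length hold it. The retinoic acid receptor motif AGGTCA, searched on both strands, was found at 1 place in Hoxc4, at 1 place in Hoxd8 and not in Hoxd9, and 14% of all windows hold it. The caudal site TTTATN, whose letters can overlap those of TAAT, was found in none of the 3 windows and in 37.2% of all windows. A match is a description of the letters only. The GC content was 62.0% in Hoxc4, 44.4% in Hoxd8 and 65.2% in Hoxd9, against a median of 52.4% over all windows. Of the 10 HOX genes, 6 have a window in the table.

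The array of NPC replicate 3 stood apart from the other NPC arrays. Across genes it correlated with them at r = 0.978 to 0.979, while NPC replicates 1 and 2 correlated at r = 0.997 and the ESC arrays with each other at r = 0.996 to 0.998. NPC replicate 3 lay over 2-fold above the mean of NPC replicates 1 and 2 at 378 genes and over 2-fold below it at 308, while at 7 genes, or 0.0408%, NPC replicates 1 and 2 lay over 2-fold from each other, no HOX gene of the set among them. Values of the HOX genes are therefore given array by array, and differences are given with and without replicate 3. The labels were checked on Pou5f1. This gene, which encodes the pluripotency factor OCT4, was at or above 12.42 on the log2 scale in every ESC array and at or below 3.83 in every NPC array. The neural precursor genes Nes and Fabp7 read at least 7.57 and 12.76 in the NPC arrays, but they could be named only through a list of genes that rose in NPCs and so do not check the labels.

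Of the HOX genes, Hoxc4 varied the most among the NPC arrays. This gene of paralogue group 4 (ENSMUSG00000075394_at), active in the posterior hindbrain and spinal cord, had log2 RMA values of 3.94, 4.14 and 4.39 in ESC replicates 1, 2 and 3 and of 7.29, 7.41 and 3.77 in NPC replicates 1, 2 and 3. NPC replicates 1 and 2 thus lay far above all ESC arrays, and NPC replicate 3 lay below all of them. The mean of NPC replicates 1 and 2 was 9.13-fold above the ESC mean, and replicate 3 was 0.761 times that mean. Between the NPC arrays the drop from replicates 1 and 2 to replicate 3 was 12-fold, or -3.58 on the log2 scale, and 5 of the 17144 genes, Hoxc4 among them, had a difference at or below that value. Taken over all 3 NPC arrays the mean was 6.16 ± 2.07 (SD, n = 3 arrays) against 4.16 ± 0.23 (SD, n = 3 arrays) in ESCs, a difference of 2.00 that became 3.19 without replicate 3. A mean over the NPC replicates does not describe any of these arrays for Hoxc4.

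Hoxd9 had the opposite pattern. It (ENSMUSG00000043342_at) belongs to paralogue group 9, whose members act in the trunk and the limbs. Its log2 values were 5.33, 5.19 and 5.65 in ESC replicates 1 to 3, 5.55 and 5.27 in NPC replicates 1 and 2, and 7.88 in NPC replicate 3. The first pair of NPC arrays lay inside the range of the ESC arrays, and replicate 3 alone lay above it. Replicate 3 was 5.63-fold above the ESC mean and 5.55-fold above the mean of NPC replicates 1 and 2, a difference of 2.47 on the log2 scale that 48 of the 17144 genes, Hoxd9 included, reached or passed. The difference between the means of the cell types was 0.85 with all arrays and 0.02 without NPC replicate 3.

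Hoxd8 (ENSMUSG00000027102_at), the next protein coding HOX gene to Hoxd9 in the HoxD cluster, was the member with every NPC array above every ESC array. It read 4.25, 4.43 and 4.58 in ESC replicates 1 to 3 and 6.53, 6.74 and 7.80 in NPC replicates 1 to 3. Each NPC array was over 2-fold above the highest ESC array, and replicate 3 was the highest. The NPC mean was 7.02 ± 0.68 (SD, n = 3 arrays) and the ESC mean 4.42 ± 0.17 (SD, n = 3 arrays), a difference of 2.61 on the log2 scale or 6.09-fold, and of 2.22 without replicate 3. Within the NPC arrays replicate 3 was 2.24-fold above the mean of replicates 1 and 2, and 290 genes had a difference as large or larger. In RefSeq the long noncoding RNA gene Gm38462 overlaps Hoxd8, and another, Gm30528, overlaps Hoxc4. Likewise Hoxb3 overlaps Hoxb4 and Hoxb5os overlaps Hoxb5, and how far such genes add to the signal was not tested.

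**Figure D1:**
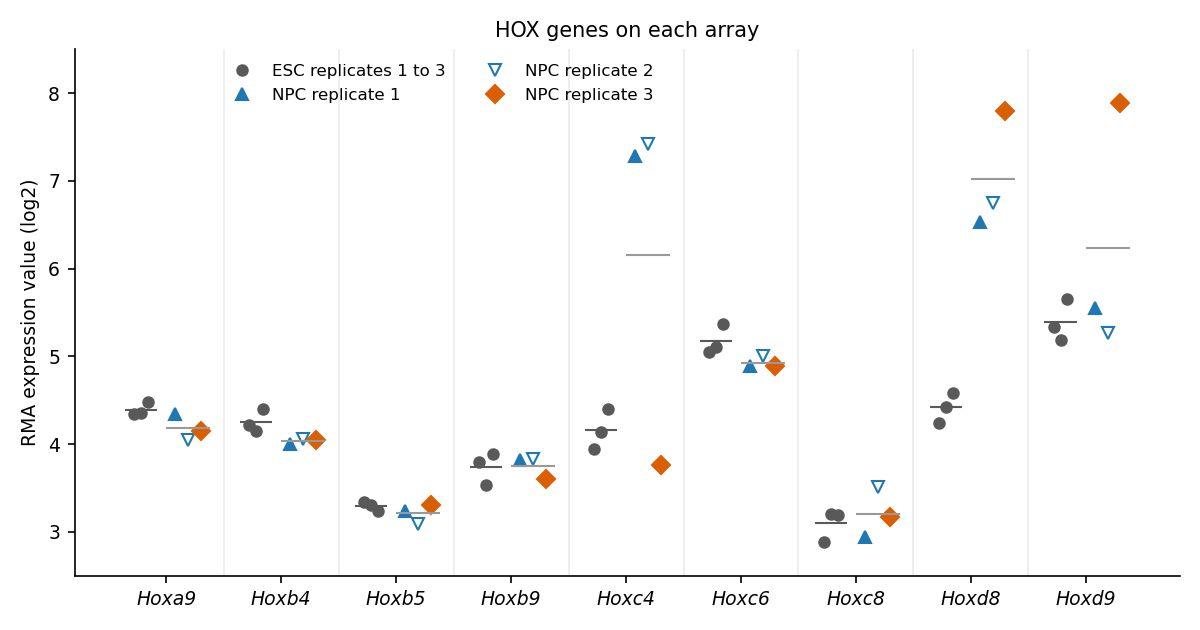
RMA expression value on the log2 scale (vertical axis) of the 9 HOX genes with a row (horizontal axis) on each array. Dots are ESC replicates, triangles are NPC replicates 1 and 2, diamonds are NPC replicate 3, and short lines are the means of 3 arrays. Hoxc4 is high in NPC replicates 1 and 2 at 7.29 and 7.41 and low in replicate 3 at 3.77, Hoxd9 is high in replicate 3 at 7.88, and Hoxd8 is above the ESC arrays in all 3.

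The other 6 HOX genes stayed near their ESC values in every NPC array. Their differences between the cell types ran from -0.25 to 0.11 on the log2 scale, and the NPC arrays of a gene spanned between 0.053 and 0.56. At Hoxc8, Hoxb5 and Hoxb9 the arrays of the cell types overlapped. At Hoxc6, Hoxa9 and Hoxb4 every NPC array lay below every ESC array, by differences of the means of at most 0.25. NPC replicate 3 differed from the mean of replicates 1 and 2 by between -0.22 and 0.14. No detection calls were used, so a low value that matches the ESC value does not tell if the gene was silent.

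Hoxc6 and Hoxc8 of the same cluster did not share the high values of Hoxc4. Hoxc6 (ENSMUSG00000001661_at), a gene of the thoracic and forelimb levels of the spinal cord, read 5.05, 5.11 and 5.37 in ESC replicates 1 to 3 and 4.89, 5.00 and 4.89 in NPC replicates 1 to 3. Hoxc8 (ENSMUSG00000001657_at), which takes part in motor neuron pool identity, read 2.89, 3.20 and 3.20 in ESCs and 2.94, 3.51 and 3.17 in NPCs. Every NPC value of Hoxc6 lay below every ESC value by a small margin, and those of Hoxc8 overlapped the ESC values.

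The HoxA and HoxB members were flat as well. Hoxa9 (ENSMUSG00000038227_at), a regulator of blood progenitors of the same paralogue group as Hoxd9, read 4.34, 4.35 and 4.48 in ESC replicates 1 to 3. In NPC replicates 1 to 3 it read 4.34, 4.05 and 4.15, all below the lowest ESC array. NPC replicate 1 was below it by a hair, at 4.3430 against 4.3445. Hoxb9 (ENSMUSG00000020875_at), another gene of that paralogue group, read 3.80, 3.53 and 3.89 in ESCs and 3.81, 3.83 and 3.60 in NPCs. NPC replicate 3 was thus raised at Hoxd9 and not at these paralogues. Hoxb4 (ENSMUSG00000038692_at), the paralogue of Hoxc4 known for its use in expanding blood stem cells, read 4.22, 4.15 and 4.40 in ESCs and 4.01, 4.06 and 4.04 in NPCs. Hoxb5 (ENSMUSG00000038700_at), which acts in the neural crest of the gut, read 3.34, 3.30 and 3.23 in ESCs and 3.23, 3.09 and 3.30 in NPCs. No NPC array showed a rise in Hoxb4 where Hoxc4 was high.

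Read against all genes, non-overlap of the cell types was common on these arrays. The 3 NPC arrays were all above the 3 ESC arrays at 26.1% of genes and all below them at 32.6%, or without overlap in 58.7%. Of the 9 HOX genes, 1 was above (Hoxd8) and 3 were below (Hoxc6, Hoxa9 and Hoxb4), and the number below was 1 with quantile normalization and 0 with median centring of the arrays. The means of the cell types were over 2-fold apart at 21.2% of genes and at 2 HOX genes (Hoxc4 and Hoxd8), and under 1.5-fold apart at 64.9% of genes and at the 6 flat HOX genes. The median difference of the 9 genes was 0.01 on the log2 scale, beside -0.04 over all genes, and centring moved the latter by 0.15. In the limma fit over all 17144 genes, 34.1% were called at an adjusted p under 0.05 with a difference over 1.5-fold, 15.4% as higher in NPCs and 18.7% as lower, and 1 of the 9 HOX genes was called (Hoxd8, higher). The members were chosen with this contrast in view, so nothing is read from that count.

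NPC replicate 3 lay over 2-fold above the mean of NPC replicates 1 and 2 at 2.20% of all genes and over 2-fold below it at 1.80%. Of the 9 HOX genes, 2 were above (Hoxd8 and Hoxd9) and 1 below (Hoxc4). These genes were picked because they differ, and a single array against a pair allows no test of the difference. In bulk RNA, fewer cells that express a gene and less RNA per cell cannot be told apart, which holds for each of these values.

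**Figure D2:**
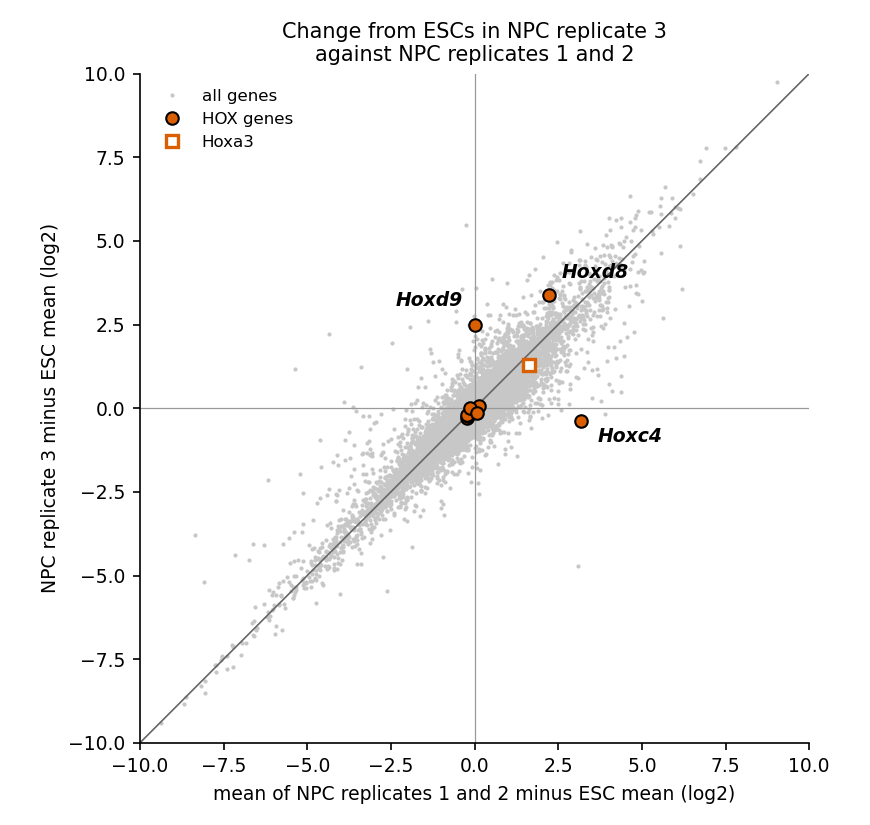
Each grey point is 1 of the 17144 genes, with the mean of NPC replicates 1 and 2 minus the ESC mean on the horizontal axis and NPC replicate 3 minus the ESC mean on the vertical axis, both on the log2 scale, and the diagonal marks equal change. Hoxc4 lies far below the diagonal at 3.19 and -0.39, Hoxd9 above it at 0.02 and 2.49, Hoxd8 above it at 2.22 and 3.38, and the other 6 HOX genes lie close to the origin.

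Hoxa3 was the only HOX gene outside the set that could be named here, because it stands in a list of genes sorted by their rise in NPCs. It belongs to paralogue group 3, which acts in the hindbrain and the pharyngeal arches. Its log2 values were 4.26, 4.46 and 4.17 in ESC replicates 1 to 3 and 6.27, 5.58 and 5.60 in NPC replicates 1 to 3. Every NPC array was higher than every ESC array, and here replicate 1 was the highest. NPCs exceeded ESCs by 1.52 ± 0.20 (log2, limma standard error), or 2.87-fold, with a Benjamini-Hochberg adjusted p of 0.000538 over all genes. Its naming through that list means that the p-value is not independent evidence of a rise. In RefSeq the span of Hoxa5 overlaps those of Hoxa3 and Hoxaas3, and what such genes add to the Hoxa3 signal was not tested. Unlike Hoxc4 and Hoxd9, Hoxa3 was raised in NPC replicate 3 by about as much as in replicate 2.

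**Figure D3:**
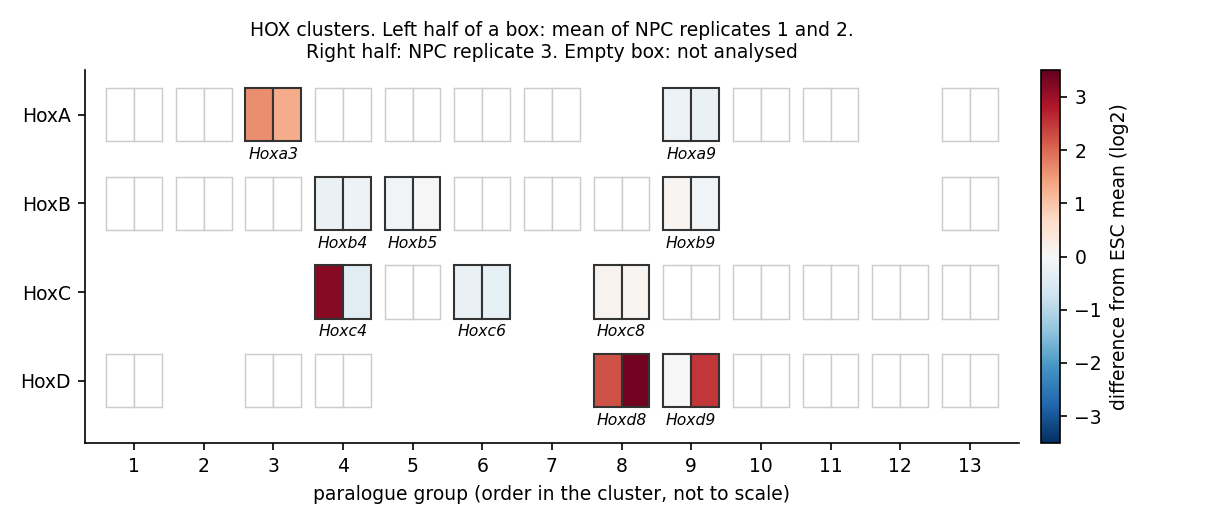
The 39 HOX genes of RefSeq by cluster (rows) and paralogue group (columns, not to scale), with the difference from the ESC mean on the log2 scale as colour, for the mean of NPC replicates 1 and 2 at the left of a box and for NPC replicate 3 at the right. Empty boxes are Hoxa5, which had no row, and HOX genes that could not be named here and so were not analysed singly. Hoxc4 is raised at the left only, Hoxd9 at the right only, Hoxd8 and Hoxa3 in both, and the other filled boxes are near 0.

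The genes whose values over the 6 arrays were most like those of Hoxc4 were Foxd1, Gucy1b3, Mecom, Nrn1 and Efhd2. Their Pearson correlations with Hoxc4 were between 0.991 and 0.996, among 1967 genes whose arrays span at least 2 on the log2 scale, and the arrays share their cell type, so these are descriptions. Foxd1, a forkhead factor of the ventral forebrain and of kidney stroma, was the closest. It read 3.11, 3.11 and 3.23 in ESC replicates 1 to 3, 7.05 and 7.02 in NPC replicates 1 and 2, and 2.99 in NPC replicate 3. In all, 31 genes (0.181%) lay over 2-fold above the highest ESC array in NPC replicates 1 and 2 and not above it in replicate 3, Hoxc4 included, and 22 of them could be named.

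Hoxd9 had its likeness in other genes raised in NPC replicate 3 alone. By Pearson correlation the closest were ENSMUSG00000022122 (0.993) and ENSMUSG00000030559 (0.991), for which no name was at hand, followed by another unnamed gene and by Nap1l5 and Pou3f4 (both 0.983). Pou3f4, a POU factor of the neural tube and inner ear, read 4.61, 4.27 and 4.40 in ESC replicates 1 to 3 and 4.42, 4.39 and 7.18 in NPC replicates 1 to 3. As at Hoxd9, replicate 3 was the single high array. A total of 38 genes (0.222%) lay over 2-fold above the highest ESC array in replicate 3 and not above it in NPC replicates 1 and 2. By contrast, every NPC array lay over 2-fold above the highest ESC array at 1086 genes (6.33%), the pattern of Hoxd8.

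Of the named genes for partners of HOX proteins, 1 (Meis1) lay over 2-fold above the mean of NPC replicates 1 and 2 in replicate 3. None lay over 2-fold below it. Among all genes the shares were 2.20% above and 1.80% below. Hoxc4 and Hoxd9 were picked because they differ among these arrays, so the partners are not compared with them. MEIS and PBX proteins bind DNA together with HOX proteins. Of the 9 genes listed for them 5 could be named, all through the list sorted by rise, so that their direction is not a finding. Meis2 read 6.58, 6.52 and 6.76 in NPC replicates 1 to 3 and at most 3.93 in ESCs. Meis1 was 2.03-fold higher in NPC replicate 3, at 6.87, than in the mean of replicates 1 and 2, at 5.85. Pbx3 was 1.59-fold higher there. Meis3, at 6.63 in replicate 3 against a mean of 7.03, was lower.

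Some genes listed for levels of the neural axis also differed between the NPC arrays. Of the lists made for them, 3 of 9 hindbrain genes, 3 of 19 genes of the spinal cord and hindbrain and 3 of 14 forebrain and midbrain genes could be named, all through the list sorted by rise, so their rise over ESCs is not a finding. Lhx2 and Emx2, factors of the forebrain, read 8.41, 8.14 and 6.90 and 6.65, 6.34 and 5.73 in NPC replicates 1 to 3, with ESC values of at most 3.60 for Lhx2 and 3.56 for Emx2. Both were lowest among the NPC arrays in replicate 3. Nkx2-2, a ventral neural tube factor, was 9.38 and 9.24 in replicates 1 and 2 and 6.68 in replicate 3. In the other direction Egr2, listed for its role in the hindbrain segments, was 4.79, 4.49 and 6.89. Its co-repressor gene Nab2, listed beside it and not itself a marker of a level, was 9.04, 8.66 and 10.31. En1, a factor of the midbrain-hindbrain border and of spinal interneurons, was 3.45, 3.66 and 4.77. Too few genes of each list could be named to read a level of the axis from these directions, and none was tested. Nab1, Olig2, En2, Gdf11, a signal that sets posterior HOX expression, and Aldh1a1, an enzyme of retinoic acid synthesis, differed by at most 1.57-fold between replicate 3 and the mean of replicates 1 and 2.

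**Figure D4:**
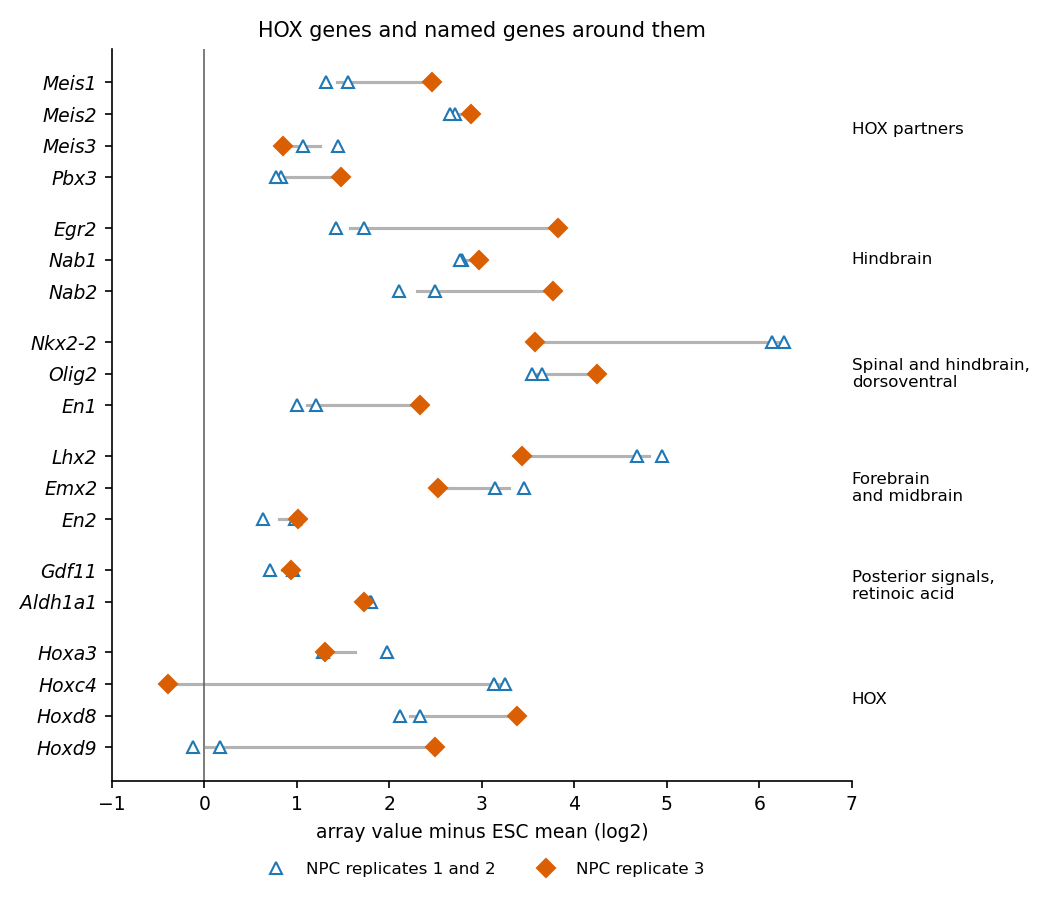
Value of each NPC array minus the ESC mean of the gene, on the log2 scale (horizontal axis), for named genes of the lists (rows, grouped at the right). Triangles are NPC replicates 1 and 2, diamonds are NPC replicate 3, and grey lines join the mean of replicates 1 and 2 to replicate 3. Hoxc4 is at -0.39 in replicate 3, while Hoxd9, Egr2, Nab2, En1 and Meis1 are higher in replicate 3 and Nkx2-2, Lhx2 and Emx2 lower.

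Some of the named cell type markers also differed between replicate 3 and the other NPC arrays, in either direction, and others did not. Among the neuron markers 3 of 10 could be named: Dcx read 4.86, 5.06 and 3.76 in NPC replicates 1 to 3, Syt1 read 6.93, 7.02 and 4.90, and Gap43 read 8.32, 8.55 and 10.11. Dcx and Syt1 were lower in replicate 3 and Gap43 higher. Of the precursor genes, Sox9 was 2.41-fold and Slc1a3 2.15-fold higher in replicate 3 than in the mean of the other NPC arrays. Of the mesoderm markers 2 of 12 could be named, and Foxc1 was 2.30-fold and Twist1 1.57-fold higher there. The named astrocyte genes (S100b, Sparcl1 and Aldoc), oligodendrocyte lineage genes (Olig1, Olig2 and Cnp), neural crest gene (Ets1) and fibroblast gene (Fbn1) differed by less than 2-fold. Too few markers of a list could be named to sum them, and their part in the HOX differences was not tested.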

How the data were processed

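A single Affymetrix mouse array was hybridized per replicate, 3 of ESCs and 3 of NPCs. The values deposited by the authors are on the log2 scale and come from the robust multi-array average (RMA), that is background correction, normalization between arrays and 1 summary value per Ensembl gene, with the probes assigned by an updated annotation, BrainCDF. Its version and the genome build behind it are not given in the sources, so RefSeq coordinates (GRCm38.p6) stand for promoter windows only.

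Of 17208 rows, 64 control probe sets were left out, and the labels gave cell type and replicate number. Genes were fitted with limma 3.58.1 under R 4.3.3 (lmFit, eBayes, without covariates, two-sided), adjusted by Benjamini-Hochberg over 17144 genes, and called at an adjusted p under 0.05 and over 1.5-fold. The fit was tested on simulated data. Array medians were 5.75 to 5.76 in ESCs and 5.59 to 5.61 in NPCs. Arrays hold no count of molecules, and the precision is limited by their number, 3 for each cell type.

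Deposited rows carry no gene names. Names came from the printed tables of the study, where all 6 array values matched within 0.0001, and for 6 of the HOX genes from the list that defined the set. In all 2010 genes were named, nearly all of them ones that rose in NPCs. Of 160 genes in 15 lists around the HOX family, 35 could be named, and none of the MLL complex list. Of these 34 were called higher in NPCs and 1 (Pou5f1) lower, which follows from how they were named. The members, gene lists and tests were chosen with earlier results of these data known. The genes named are the HOX genes, up to 4 genes of each list with the largest difference between cell types and up to 2 with the largest difference of NPC replicate 3 from the other NPC arrays, the 5 genes most like Hoxc4 and Hoxd9, and Pou5f1, Fabp7 and Nes, of which Pou5f1 checks the labels. Some genes that this rule selects are not reported here. Alternatives were a moderated Welch test, as in the methods of the study, a mean-variance trend, a replicate block, quantile normalization, median centring, a filter at the median of the mean values, other fold thresholds, Spearman correlation, and each array left out in turn. Python 3.11.15 with pandas 2.3.3 and matplotlib 3.10.9 made the tables and figures.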

Additional observations from a re-analysis of the deposited data

How the results depend on the processing

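The shift of NPC replicate 3 at each HOX gene moved by less than the replicate spread under both rescalings. That spread was the larger of the ESC and NPC SDs. At Hoxc4, Hoxd9 and Hoxd8 it holds the shift itself, so the comparison is no check there. Under quantile normalization and median centring the shift was -3.57 and -3.58 at Hoxc4, 2.43 and 2.48 at Hoxd9, and 1.16 and 1.17 at Hoxd8. NPC array medians were close, at 5.59 to 5.61, so centring could move it little. Of 18 differences between the cell types, 15 moved by less than the same spread, which replicate 3 widens at Hoxc4, Hoxd9 and Hoxd8. The exceptions, under median centring, were Hoxa9 at -0.06, Hoxb4 at -0.07 and Hoxb5 at 0.07. With 1 array left out, the number of HOX genes with all NPC arrays above all ESC arrays was between 1 and 2, the latter without NPC replicate 3, which adds Hoxc4, and the number below was between 3 and 4. That number was 1 after quantile normalization and 0 after median centring.

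Genes called numbered 5851, of which 45.1% were higher in NPCs, or 55.6% after median centring. With a difference over 2-fold there were 3592 (1615 higher, 1977 lower), and with each array left out between 5637 and 6199. NPC replicate 3 lay over 1.5-fold above NPC replicates 1 and 2 at 979 genes and below at 1016. Among genes above the median of the mean value, it lay over 2-fold above at 248 and below at 196, HOX genes among them 1 and 0, since the filter left out Hoxc4 and Hoxd8. That filter also left 19 of the 34 list genes called higher and left out Hoxa3, which was called under all other settings, at 1.29 to 1.68. Of the 5 genes most like Hoxc4, 1 remained with Spearman correlation, and of those most like Hoxd9, 2 remained with Spearman correlation, where 53 genes reached the value of the fifth, and 2 after quantile normalization.

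Deviations of same-numbered arrays from their group means correlated between -0.00645 and 0.0264, which gives no sign that a number pairs arrays. Fitting a replicate block gave 5867 called genes (2649 higher, 3218 lower), Hoxa3 among them.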

Other observations

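Other genes were, like Hoxc4, high in NPC replicates 1 and 2 and low in replicate 3, and those printed were chosen after their values were seen. Among the 22 named genes that lay over 2-fold above the highest ESC array in NPC replicates 1 and 2, and not above it in NPC replicate 3, were the transcription factor genes Barx1 and Onecut2. Barx1 read 6.99, 6.89 and 5.25 in NPC replicates 1 to 3, with ESC values up to 5.28, and Onecut2 read 5.03, 5.04 and 3.16, with ESC values up to 3.44. Other genes of the same set were Lss, Sc4mol, Acat2, Manf and Sdf2l1. Lss, the enzyme that makes lanosterol, read 9.57, 9.46 and 7.55 in NPC replicates 1 to 3, Sc4mol read 10.27, 10.29 and 8.95, and Acat2 read 12.31, 12.32 and 10.74. Manf, a secreted protein of the endoplasmic reticulum, read 12.64, 12.71 and 11.13, and Sdf2l1 read 8.18, 8.12 and 5.87. In the limma fit over all genes, only Barx1 of those printed here was called, as higher in NPCs (Benjamini-Hochberg adjusted p of 0.0461). The genes were chosen by their values, so nothing is read from that call. No test was run on the difference of replicate 3 from the other NPC arrays.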
